A study of Homo sapiens with 12 samples.

Results

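The genes of the ATF4 program and of serine synthesis were read in HepG2 cells over a time course of insulin. A set of 10 was chosen by name, as the rows of the count table for ATF4, DDIT3, TRIB3, CHAC1, SESN2, ASNS, PSAT1, PHGDH, SHMT2 and MTHFD2, out of 26364 named genes in that table. HepG2 is a line from a human liver tumour, and no genetic change to it is named in the labels. RNA was sequenced at 0, 5, 10, 30 and 240 min of insulin, with 2 libraries per time. Per the labels, the cells of all 10 RNA libraries stayed 16 h in EMEM, a culture medium, before insulin at 3 nM with BSA. That treatment text gives 5 min for every library, the 0 min libraries included, so that the times here rest on the sample titles. The study describes its RNA-seq as 1 experiment with biologically independent samples. The tests here therefore do not cover variation between experiments. No untreated culture was followed to 240 min, so that time in the medium and time in insulin cannot be told apart. A further library, chromatin immunoprecipitated with an antibody against the insulin receptor (IR) from insulin-stimulated HepG2 cells, gave 1 peak list. Per the labels that insulin was at 3 nM, and an input library of the same dose belongs to the series.

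ATF4 is a transcription factor of the integrated stress response. Its mRNA is read poorly until a kinase phosphorylates the initiation factor eIF2alpha, as in amino acid shortage or stress in the endoplasmic reticulum, so that ATF4 is set to a large extent at translation and its mRNA does not give the level of the protein. ATF4 binds, often with a C/EBP protein, at composite sites in the genes for amino acid synthesis, amino acid transport, tRNA charging and feedback, and in liver cells insulin is known to raise ATF4 activity through mTORC1. The serine pathway runs from 3-phosphoglycerate through PHGDH, PSAT1 and PSPH to serine, from which SHMT2 and MTHFD2 draw one-carbon units in mitochondria.

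The composite site TGATGNAA, searched on both strands within 1000 bases on each side of the deposited gene start, was found in 9 of the 10 genes, at 17 places, and ATF4 itself held none. Of the 13695 tested genes with a position in the files, 17.3% held it in the same window. The full form TGATGCAA, which is contained in that count, was found in 7 of the 10 genes, at 11 places, against 3.37% of all tested genes. Since the genes were picked as members of the ATF4 program, this is a description of them, and a match of letters is not a measured site of binding. The sequences of the genes that changed most, TRIB3 and SESN2, are shown with 1 site each of DDIT3 (of 3), CHAC1, ASNS (of 2) and PSAT1 (of 2), whose levels differed less or could not be tested. Each is read from GRCh37 on the strand of the gene, 5′ to 3′, with the composite site in capitals and 10 bases on each side in lower case, and the coordinates are those of the capitals.
TRIB3 (plus strand, 3 copies at chr20:361536-361543, chr20:361569-361576 and chr20:361602-361609): tagctccggtTTGCATCAcccggaccgg
SESN2 (plus strand, chr1:28585733-28585740): tgaagtccctTTTCATCAcgcaacccta
SESN2 (plus strand, chr1:28586581-28586588): gggacccgggTTGCATCAactggcagcc
DDIT3 (minus strand, chr12:57914596-57914603): ttgccaaacaTTGCATCAtccccgcccc
CHAC1 (plus strand, chr15:41245460-41245467): tcccctgccgTTGCATCActcctgccag
ASNS (minus strand, chr7:97501781-97501788): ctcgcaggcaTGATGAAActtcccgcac
PSAT1 (plus strand, chr9:80912308-80912315): cctaggcgctTTGCATCAgcgtgcacag

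The 3 copies in TRIB3 were identical over all the bases shown and lay 33 bases apart, at 263, 296 and 329 bases after the gene start, in an exon without coding sequence. No other member had more than 1 copy of the same stretch. SESN2 had a site with another base in the variable position at -230 bases, where minus means before the start, upstream of the gene, and a full site 618 bases after the start, in an intron. The DDIT3 site shown lay at -303 bases from the start in the deposited table, in an intron of a longer annotated transcript, and the CHAC1 site lay at -176 bases, in an exon without coding sequence of such a transcript. The ASNS site shown was 66 bases after the start, in an exon without coding sequence, and the PSAT1 site shown was 317 bases after it, in an intron. DDIT3 held a second full site 822 bases after its start, in an intron. The map of sites shows that the places were spread over the window, with no position common to the genes.

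**Figure D1:**
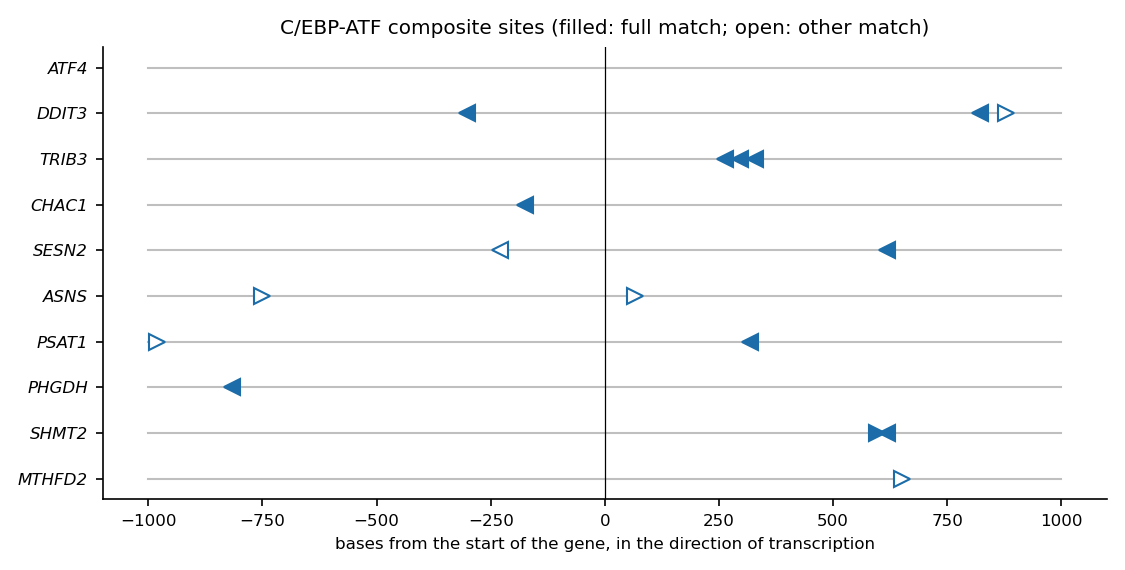
Composite sites within 1000 bases on each side of the start of each gene; the x axis is bases from the gene start in the direction of transcription, each row is 1 gene, filled triangles are TGATGCAA, open triangles the other forms of TGATGNAA, and a triangle points right where the site reads so on the strand of the gene and left where it reads so on the other strand. The 3 filled triangles of TRIB3 stand side by side at 263, 296 and 329 bases, and the row of ATF4 is empty.

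Per transcript length, in deposited TPM, the genes spanned a wide range before insulin. PSAT1, the aminotransferase of the serine pathway, stood at 286 ± 18.8 TPM (SD, n = 2) and ATF4 at 264 ± 24.3 TPM, and the libraries of both genes overlapped. MTHFD2 followed at 111 ± 9.03 TPM, SHMT2 at 101 ± 5.82 TPM and PHGDH at 92.7 ± 5.37 TPM, where the libraries of MTHFD2 and SHMT2 overlapped and those of SHMT2 and PHGDH did not. TRIB3 was below these at 79.4 ± 10.9 TPM and ASNS at 40.0 ± 6.59 TPM. SESN2 at 15.2 ± 0.881 TPM and DDIT3 at 14.04 ± 0.189 TPM were the lowest of the 9 genes with a level above 0. CHAC1 was listed at 0 TPM in all 10 libraries.

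The order moved at 240 min. TRIB3 went from the sixth place to the third, at 124 ± 8.78 TPM, and its libraries (118 and 130 TPM) lay above those of MTHFD2 (114 and 115 TPM). SESN2 went from the eighth place to the ninth, at 10.98 ± 0.176 TPM, below DDIT3 at 14.5 ± 1.30 TPM, without overlap of the libraries. PSAT1 at 314 ± 4.32 TPM and ATF4 at 304 ± 5.41 TPM remained the highest, and PHGDH and SHMT2, at 95.9 ± 6.48 and 94.2 ± 2.30 TPM, overlapped.

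**Figure D2:**
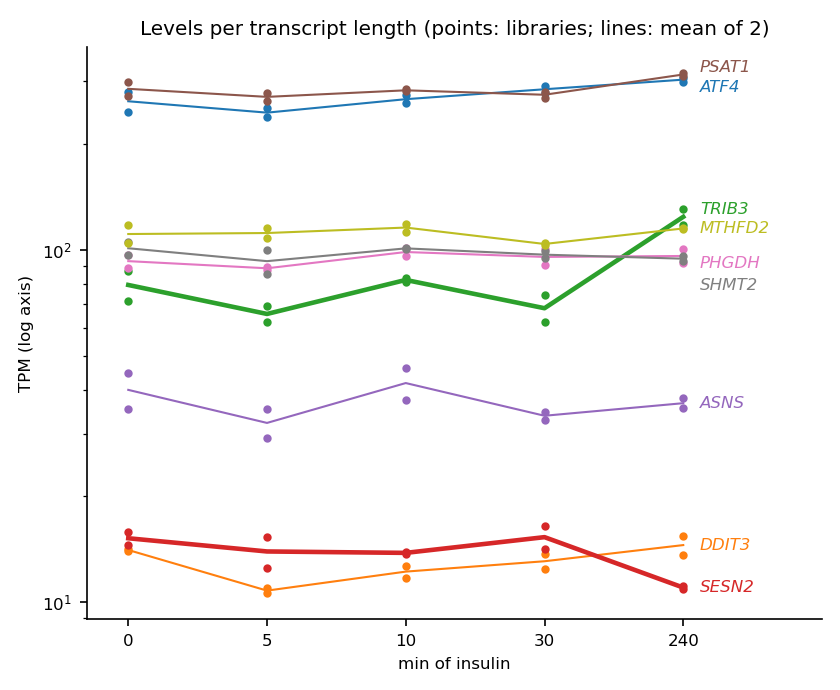
Deposited TPM of 9 of the genes at each time; the y axis is TPM on a log scale, points are libraries and lines join the means of 2 libraries, with TRIB3 and SESN2 drawn thicker. TRIB3 crosses PHGDH, SHMT2 and MTHFD2 between 30 and 240 min, and SESN2 drops below DDIT3.

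Reads counted on genes ranged from 18347109 to 45005769 per library, the deepest being 0 min replicate 2, and the 2 libraries of a time differed beyond counting noise at all 5 times. Hepatocyte-like markers were present in each library, with APOB at 35389 to 40927 CPM and ALB at 13892 to 20349 CPM. Of the markers of other cell types, PTPRC, the marker of blood cells, had 0 counts in all 10. CD68 stood at 36.3 to 45.3 CPM and ACTA2 at 42.3 to 65.5 CPM, so that not all were absent. PECAM1, VWF and COL1A1 reached at most 3.00, 1.16 and 1.94 CPM. Of the 10 hepatocyte-like markers HNF4A alone was called higher and AHSG alone lower at 240 min, and of the 5 tested markers of other cell types 1 (ACTA2) was lower, with COL3A1, DES and PTPRC too low to test. The part of these markers in the results was not tested. CPM are counts scaled to a library of the same size, with TMM factors, and a gene is called changed where the adjusted p of edgeR's quasi-likelihood test over all 13852 tested genes is under 0.05. CHAC1 was too low to be tested, which left 9 of the 10 genes.

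At 240 min against 0 min TRIB3 rose and SESN2 fell, and the other 7 tested genes did not pass the test. These 2 of 9 genes stand beside 41.0% of all tested genes called in that comparison, 20.6% higher and 20.4% lower, and they make 22.2% of the members tested. The median log2 fold change of the 9 genes was 0.0076 and that of all tested genes -0.0026, and the median size of the change was 0.092 against 0.20 for all genes. The libraries of both times did not overlap for 5 of the 9 genes (TRIB3, DDIT3 and PSAT1 higher, SESN2 and SHMT2 lower), which held for 69.7% of all tested genes. In these bulk libraries fewer cells that express a gene and less RNA per cell cannot be told apart.

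TRIB3, a pseudokinase that is a target of ATF4 and a feedback inhibitor of it, and that is known to bind AKT in liver, had 84.5 and 71.1 CPM at 0 min, 68.0 and 61.5 CPM at 5 min, 73.8 and 81.3 CPM at 10 min, 72.9 and 60.7 CPM at 30 min and 115 and 126 CPM at 240 min. Both libraries at 240 min lay above all 8 others, and the earlier times overlapped 0 min except 5 min, which was below it. The log2 fold change at 240 min was 0.64 (SE 0.083, 95% interval 0.47 to 0.82, adjusted p = 4.94e-06), a level 1.56 times that at 0 min, and 5.73% of tested genes had a larger one. Against 30 min the log2 fold change was 0.84 (SE 0.085, adjusted p = 2.44e-07), a level 1.80 times that at 30 min. Scaled to the ERCC spike-in RNAs instead of TMM, the change against 0 min was 0.51 with an adjusted p of 0.0678, no longer past the threshold. That scaling moved the median of all tested genes to -0.12, and TRIB3 lay 0.63 above this median.

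SESN2, a leucine sensor that restrains mTORC1 and a target of both ATF4 and p53, had 21.0 and 22.5 CPM at 0 min, 21.5 and 18.0 CPM at 5 min, 19.5 and 20.1 CPM at 10 min, 20.3 and 22.9 CPM at 30 min and 15.3 and 15.4 CPM at 240 min. Both libraries at 240 min lay below all 8 earlier ones, and they rested on 383 and 292 reads. The log2 fold change against 0 min was -0.51 (SE 0.092, 95% interval -0.70 to -0.32, adjusted p = 0.000191), a level 0.702 times that at 0 min, and 6.36% of tested genes had a lower one. Against 30 min SESN2 fell by 0.49 on the log2 scale (SE 0.095, adjusted p = 0.000423). With ERCC scaling the change against 0 min was -0.62 (adjusted p = 0.0313), and the change against 30 min was -0.48 with an adjusted p of 0.155, no longer past the threshold.

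ATF4 had 141 and 123 CPM at 0 min, 123 and 114 CPM at 5 min, 131 and 135 CPM at 10 min, 130 and 122 CPM at 30 min and 131 and 127 CPM at 240 min. The 240 min libraries lay between the 0 min libraries. The log2 fold change was -0.025, with a 95% interval from -0.15 to 0.10 (adjusted p = 0.772), between 0.902 and 1.07 times the level at 0 min. The deposited TPM gave another direction, with 281 and 246 TPM at 0 min, 292 and 278 TPM at 30 min and 307 and 300 TPM at 240 min. On that scale the 240 min libraries lay above the 0 min libraries, by 0.21 in log2(TPM + 1). The adjusted p by limma was 0.0735 over genes with a TPM above 0 in any library, a set other than the 13852. It was 0.0430 over genes at a mean of at least 1 TPM. What makes counts and TPM of ATF4 differ was not tested.

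DDIT3, which encodes CHOP, the C/EBP-family factor that follows ATF4 in prolonged stress, had 6.03 and 5.79 CPM at 0 min and 6.52 and 6.73 CPM at 240 min. The 240 min libraries were the higher pair, and the log2 fold change was 0.17 (95% interval -0.09 to 0.42, adjusted p = 0.288). DDIT3 had 109 to 258 reads per library, the fewest of the 9 tested genes. CHAC1, which degrades glutathione and is among the genes most sensitive to ATF4 and CHOP, had 1 read in each of 4 libraries (0 min replicate 2, 5 min replicate 2 and both at 30 min) and 0 in the other 6. A count of 3 reads, the limit that a count of 0 allows, stands for 0.115 to 0.158 CPM in those 6 libraries (counting error only), and changes of CHAC1 under that limit were not detectable at this depth.

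**Figure D3:**
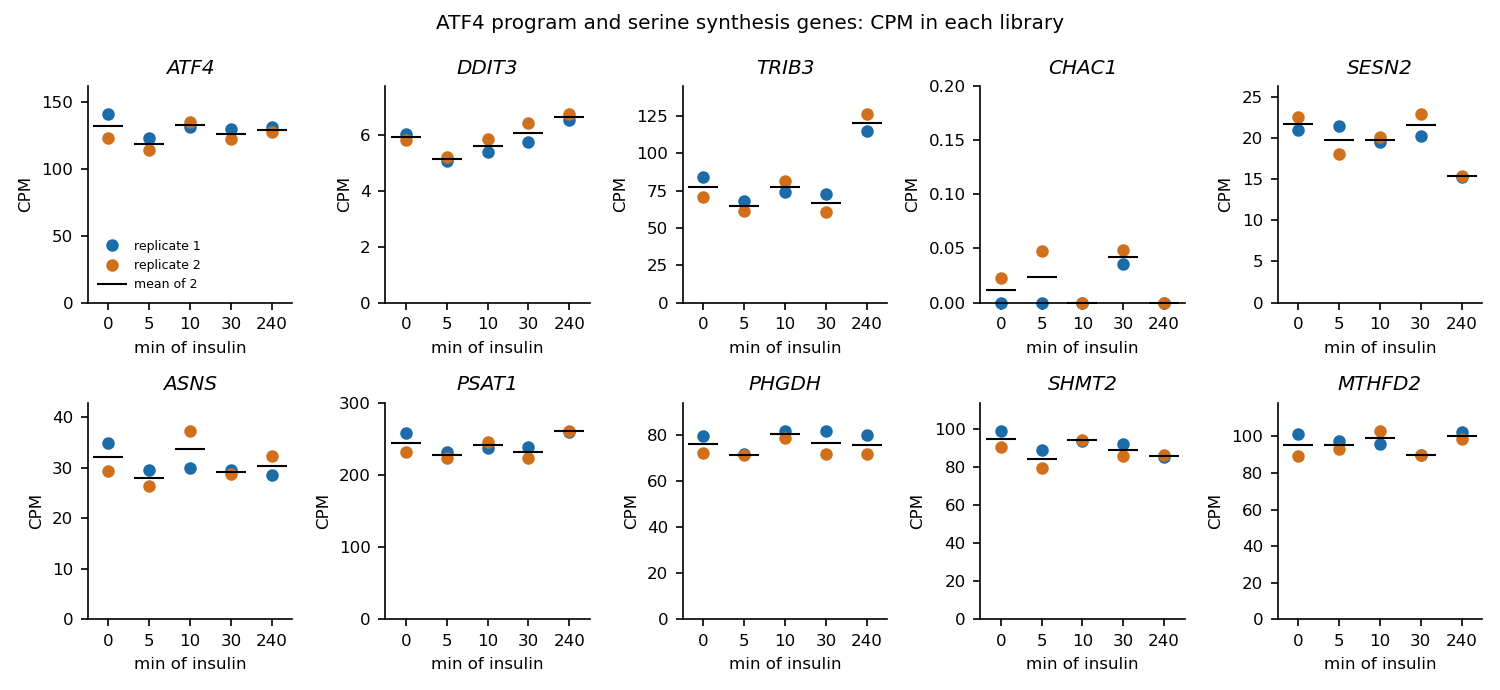
CPM of each of the 10 genes by time; each panel has its own y axis from 0, points are the 2 libraries of a time and bars their mean. TRIB3 stands highest and SESN2 lowest at 240 min, and CHAC1 has at most 1 read in any library.

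None of the genes of serine and asparagine synthesis passed the test against 0 min. PHGDH, the dehydrogenase that opens the serine pathway, had 79.8 and 72.5 CPM at 0 min and 80.3 and 71.7 CPM at 240 min, and its log2 fold change was 0.0076 (95% interval -0.13 to 0.15, adjusted p = 0.940). The 240 min libraries enclosed those at 0 min. PSAT1 had 258 and 232 CPM at 0 min, 240 and 224 CPM at 30 min and 260 and 262 CPM at 240 min. Both 240 min libraries lay just above the others, with a log2 fold change against 0 min of 0.092 (95% interval -0.02 to 0.21, adjusted p = 0.188). Without 0 min replicate 1 that value was 0.17 and passed (adjusted p = 0.0430), and without 0 min replicate 2 it was 0.01. ASNS, asparagine synthetase, had 34.9 and 29.4 CPM at 0 min and 28.6 and 32.3 CPM at 240 min, which overlapped (log2 fold change -0.07, 95% interval -0.27 to 0.14, adjusted p = 0.612).

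Neither of the mitochondrial one-carbon genes passed the test against 0 min. SHMT2, the mitochondrial serine hydroxymethyltransferase, had 98.9 and 90.1 CPM at 0 min and 85.3 and 86.1 CPM at 240 min, without overlap. Its log2 fold change was -0.14 (95% interval -0.26 to -0.01), and its adjusted p of 0.0762 missed the threshold. Without the deepest library, 0 min replicate 2, it passed (-0.21, adjusted p = 0.0360), and without 0 min replicate 1 it was -0.07 (adjusted p = 0.434). MTHFD2, which oxidises the one-carbon units that SHMT2 releases, had 101 and 89.1 CPM at 0 min and 102 and 98.6 CPM at 240 min, which overlapped (log2 fold change 0.087, 95% interval -0.04 to 0.21, adjusted p = 0.259). Without 0 min replicate 1 it was 0.17 and passed (adjusted p = 0.0478), and without 0 min replicate 2 it was -0.01.

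Against 30 min, 4 of the 9 tested genes were called at 240 min, beside 38.2% of all tested genes, 19.8% higher and 18.4% lower. TRIB3 rose and SESN2 fell, as given above, and PSAT1 and MTHFD2 rose as well. PSAT1 was 0.17 higher on the log2 scale (SE 0.055, adjusted p = 0.0181), 1.13 times its level at 30 min, from 240 and 224 CPM to 260 and 262 CPM. MTHFD2 was 0.17 higher (SE 0.060, adjusted p = 0.0359), 1.12 times its level, from 89.6 and 89.7 CPM to 102 and 98.6 CPM. Both calls were lost without 30 min replicate 2 (adjusted p = 0.169 for PSAT1 and 0.100 for MTHFD2), without 240 min replicate 1 (0.0605 and 0.192) and without 240 min replicate 2 (0.0647 and 0.0528). That of MTHFD2 was also lost without 30 min replicate 1 (0.116), by DESeq2 (0.0768) and in 3 fits by limma (0.100 to 0.138). With ERCC scaling both calls were lost (0.721 and 0.725) at log2 fold changes of 0.18 for each. The calls of TRIB3 and SESN2 held in all 10 fits that each left out 1 library. ATF4 (0.04), DDIT3 (0.13), ASNS (0.06), PHGDH (-0.02) and SHMT2 (-0.06) did not pass the test on this contrast. This comparison and that against 0 min share the 240 min libraries.

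In the first 30 min no member was called. At 5 min, where 0.0% of all tested genes were called, 8 of the 9 genes had a lower mean. Their median log2 fold change was -0.15, beside 8.43e-05 for all tested genes. The libraries of ATF4, DDIT3, TRIB3, PHGDH and SHMT2 lay wholly below those at 0 min. The gap was small for ATF4 (122.5 CPM at 5 min against 123.2 at 0 min, nearest libraries) and for PHGDH (72.0 against 72.5 CPM). Groups that did not overlap were found for 48.4% of all tested genes, and for 23.9% in the lower direction. All 9 values share the same 0 min libraries. TRIB3 was lowest at -0.25 (unadjusted p = 0.00849, adjusted p = 0.257), followed by DDIT3 at -0.20 and ASNS at -0.18. Without 0 min replicate 1 TRIB3 was at -0.13, ASNS at -0.07 and ATF4 at -0.06 (from -0.15), and without 5 min replicate 2 SHMT2 was at -0.08 (from -0.16). Of the members 3 (TRIB3, SHMT2 and ATF4) had an unadjusted p under 0.05, beside 14.3% of all tested genes. At 10 min, beside 0.137% of all tested genes called, the 9 log2 fold changes ran from -0.14 for SESN2 to 0.087 for PHGDH. At 30 min, beside 0.332% called, they ran from -0.20 for TRIB3 (adjusted p = 0.532) to 0.04 for DDIT3.

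**Figure D4:**
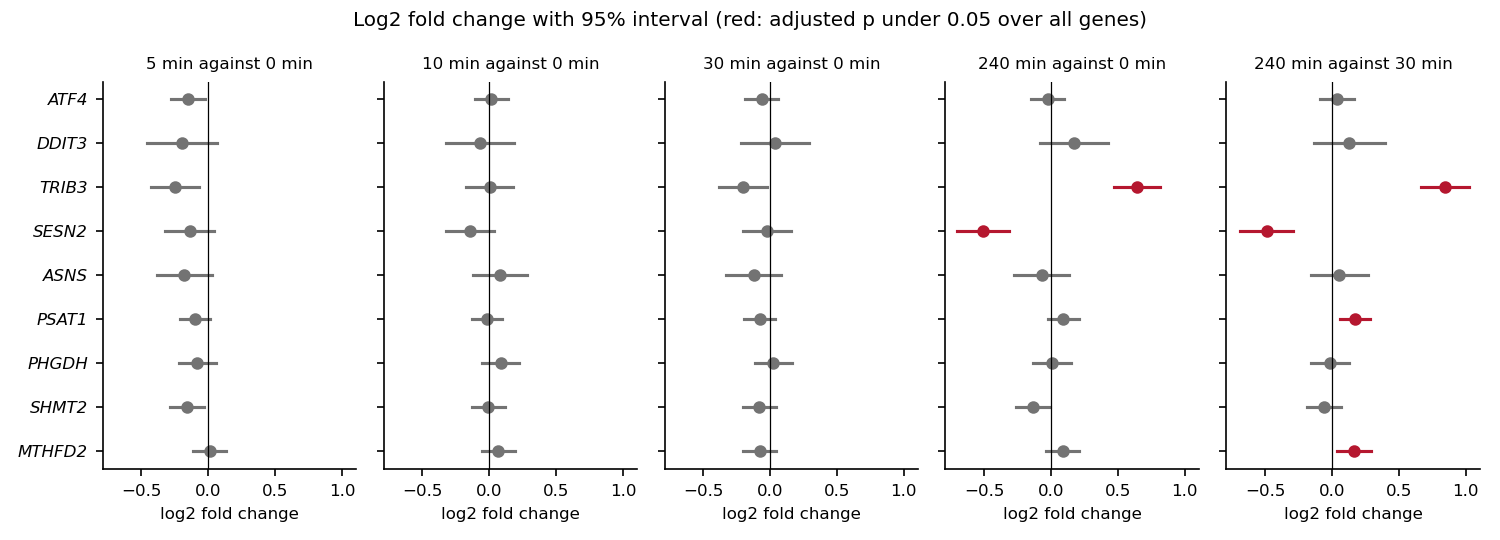
Log2 fold change of the 9 tested genes in the 5 comparisons; the x axis is the log2 fold change of the first time over the second, points are the edgeR estimates, lines their 95% intervals, and red marks an adjusted p under 0.05. Only TRIB3 and SESN2 are red at 240 min against 0 min, and PSAT1 and MTHFD2 join them against 30 min.

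Within the 10 libraries TRIB3 followed PSAT1 (Pearson's r = 0.92) and ran against SESN2 (r = -0.80), while ATF4 had r = 0.85 with SHMT2 and r = 0.49 with TRIB3, closer to each other by rank (Spearman's rho 0.78 and 0.73). These values describe libraries that share times and scaling, and they carry no test. Among the 10379 genes whose CPM averaged at least 5, the mean profile of ATF4, DDIT3, TRIB3 and SESN2 was most like SLC52A2 (r = 0.97), C16orf13 (r = 0.96) and C8orf33 (r = 0.96). The profile of ASNS, PSAT1, PHGDH, SHMT2 and MTHFD2 was most like PRDX1 (r = 0.97), ALDOA (r = 0.93) and GHITM (r = 0.92). The first profile averages TRIB3 and SESN2, which ran against each other. For both profiles these r are the highest found among the 10379 genes over 10 libraries, and high values can arise from such a search.

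Other genes that ATF4 is known to induce were called in a share near that of all genes at 240 min against 0 min. Of 31 listed, 29 were tested, and 8 were higher and 3 lower (4 and 3 with ERCC scaling), in all 37.9% beside 41.0% of all tested genes. Their median log2 fold change was 0.04, beside -0.0026 for all tested genes. FGF21 had 0 CPM at both times and, with FAM129A, was not tested. STC2, a secreted stress glycoprotein, rose from 23.9 ± 1.39 to 51.1 ± 0.396 CPM (SD, n = 2), a log2 fold change of 1.10 (edgeR, adjusted p = 1.32e-09). ATF3, a stress-induced factor of the ATF family, rose by 0.97 and DDIT4, an inhibitor of mTORC1, by 0.91. KLHL24 fell from 37.5 ± 4.83 to 9.32 ± 0.284 CPM, a log2 fold change of -2.03 (edgeR, adjusted p = 7.02e-12). SLC38A2, a transporter of neutral amino acids, fell by 1.06 and GPT2, the mitochondrial alanine aminotransferase, by 0.83. CEBPG, a C/EBP partner of ATF4, was 0.47 higher (edgeR, adjusted p = 1.20e-06). SLC7A5, the leucine transporter, was 0.71 higher (edgeR, adjusted p = 2.46e-08). The 4 higher calls with ERCC scaling include STC2, ATF3 and DDIT4, so that CEBPG and SLC7A5 cannot both be among them. The share was larger against 30 min, where 12 of the 29 were higher and 4 lower, 55.2% beside 38.2% of all tested genes. The median of the list on that contrast was 0.10, and ERCC scaling of the lists was not run on it.

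The rest of serine, glycine and one-carbon metabolism had 22 tested genes, of which 6 were higher and 2 lower (1 and 0 with ERCC scaling), in all 36.4% beside 41.0% of all tested genes, with a median of 0.12. MAT2A, which makes S-adenosylmethionine, rose from 154 ± 0.150 to 338 ± 7.79 CPM (SD, n = 2), a log2 fold change of 1.13 (edgeR, adjusted p = 7.02e-12). SLC25A32, the mitochondrial folate carrier, rose by 0.68 and MTRR, which reactivates methionine synthase, by 0.39. ALDH1L1, a cytosolic folate dehydrogenase, fell by 0.24, and SFXN1, a mitochondrial serine carrier, fell by 0.13. PSPH, the last enzyme of serine synthesis, had a log2 fold change of 0.04 and was not called, so that none of PHGDH, PSAT1 and PSPH was called against 0 min. Against 30 min, 6 of the 22 were higher and 1 lower, 31.8% beside 38.2% of all tested genes.

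Of the 20 cytosolic aminoacyl-tRNA synthetases, which charge tRNAs and of which many are ATF4 targets, 4 were higher and 2 lower (1 and 0 with ERCC scaling), in all 30% beside 41.0% of all tested genes, with a median of 0.04. FARSB, a subunit of the phenylalanine enzyme, rose by 0.70, WARS by 0.24 and RARS by 0.22, while QARS fell by 0.17 and MARS by 0.15. Among 21 endoplasmic reticulum chaperone and stress genes, 5 were higher and 2 lower (0 and 1 with ERCC scaling), in all 33.3% beside 41.0%, with a median of 0.06. SDF2L1, a chaperone cofactor, rose by 0.53, ERN1, which encodes the sensor IRE1, by 0.43 and MANF by 0.31. SYVN1 and HERPUD1, both of the degradation of misfolded proteins, fell by 0.50 and 0.36. Against 30 min, 5 of the synthetases were higher and 1 lower, 30% beside 38.2% of all tested genes. Of the endoplasmic reticulum genes 7 were higher and 3 lower on that contrast, 47.6% beside the same 38.2%.

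Genes that control eIF2alpha and mTORC1 gave 4 of 16 higher and 7 lower calls (0 and 1 with ERCC scaling), in all 68.8% beside 41.0% of all tested genes, with a median of -0.10. IMPACT, an inhibitor of the kinase GCN2, rose by 0.57, EIF2S1, which encodes eIF2alpha itself, by 0.35 and EIF2AK2, which encodes the kinase PKR, by 0.24. TSC1, part of the complex that holds mTORC1 off, fell by 0.72 and EIF2AK4, which encodes GCN2, by 0.32. Of the relatives of SESN2, SESN1 fell from 39.1 ± 1.596 to 31.1 ± 1.30 CPM (SD, n = 2), a log2 fold change of -0.33 (edgeR, adjusted p = 0.000592), and SESN3 had a log2 fold change of -0.02 and was not called. Of the 27 genes named in these lists by rule, 10 passed the test with ERCC scaling too (STC2, ATF3, DDIT4, KLHL24, SLC38A2, GPT2, MAT2A, FARSB, SYVN1 and TSC1) and 17 did not, SESN1 among them (adjusted p = 0.141). Against 30 min, 4 of the 16 control genes were higher and 9 lower, 81.2% beside 38.2% of all tested genes.

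**Figure D5:**
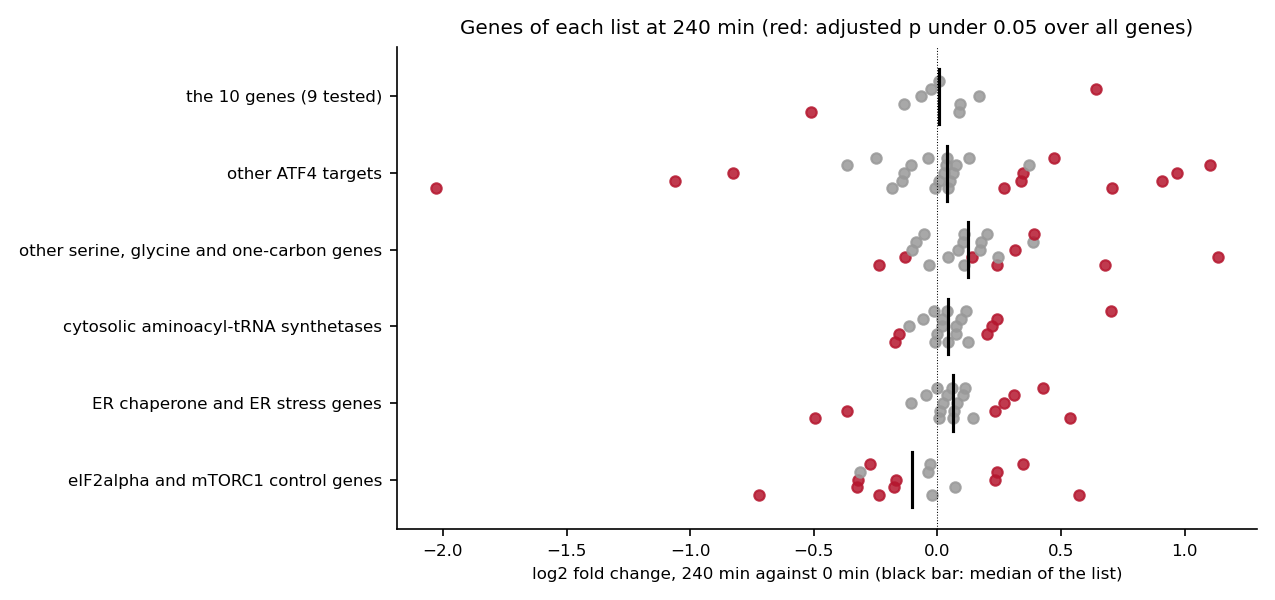
Log2 fold change at 240 min against 0 min for the 9 tested members and for 5 lists of related genes; the x axis is the log2 fold change, points are genes, red marks an adjusted p under 0.05 over all genes, black bars are medians, and the vertical offset of points within a list has no meaning. Points of every list lie on both sides of 0, and the medians run from -0.10 to 0.12.

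The IR peak list held 1971 peaks of 1 library, with a median score of 79.0. In hg19, 1 of the 10 genes, DDIT3, had a peak overlapping its gene body extended by 5 kb on each side, beside 15.6% of all tested genes. That peak, at chr12:57916171-57916981, had a score of 61, below the median, its centre lay 2.28 kb before the DDIT3 start, and the deposited annotation assigned it to MBD6. SESN2 had a peak (chr1:28623393-28623697, score 32) that counted only with an extension of 20 kb, and the nearest peak to TRIB3 had its centre 32.6 kb from the start of the gene. Peak centres nearest to the other 7 genes lay 101.7 kb (SHMT2) to 1569 kb (ASNS) away. Neither TRIB3 nor SESN2 had an IR peak within 5 kb.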

How the data were processed

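The deposited gene counts were made by the authors with Trim Galore 0.6.4, STAR 2.6.1d (hg19) and featureCounts 1.6.4, as single-end reads with reverse strandedness. Duplicates were marked, and their removal is not stated. The deposited TPM are the authors' StringTie abundances. IR peaks with a score were called by the authors with BWA 0.7.17-r1188, MACS2 2.2.7.1 and HOMER, in 1 library. The protocol labels of RNA and ChIP samples appear exchanged, and the methods of the study were followed.

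Counts were analysed here in R 4.3.3 with edgeR 4.0.16 (TMM, filterByExpr, quasi-likelihood test, Benjamini-Hochberg over 13852 genes), in 1 model of 10 libraries with time as group and no replicate block. The 92 ERCC rows, 1.59% to 2.36% of counts, were left out of tests. The highest share was that of 10 min replicate 2, beside 1.73% in 10 min replicate 1 and at most 1.91% in any other library. With ERCC scaling all comparisons share 1 estimate of the spread that includes this library. Its part in the calls lost with ERCC scaling was not tested. Alternatives were DESeq2 1.42.0, limma 3.58.1 with a pseudocount of 1 or 0.1 on TPM, no filter, RLE, ERCC scaling, only the times compared, a replicate block and leaving out each library. The main edgeR fit and the DESeq2 fit were run on counts simulated with the spread that edgeR had estimated. The other alternatives and the reading of sites and peaks were not part of that simulation. Sites were read from GRCh37, whose coordinates are those of hg19, with exons from GENCODE, and peaks were joined on hg19 gene bodies.

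Members and lists were chosen with earlier results of these data known. All 10 members were named. In other lists up to 3 called genes in each direction with the largest change and 5 CPM or more on average were named by rule, and PSPH, SESN3, CEBPG, SLC7A5, FGF21 and FAM129A were named after their values were seen. No protein was measured in the files used.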

Additional observations from a re-analysis of the deposited data

How the results depend on the processing

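With ERCC scaling the genes called fell from 5676 to 1059 at 240 min against 0 min (331 higher, 728 lower), from 5297 to 917 against 30 min (573 higher, 344 lower) and from 46 to 4 at 30 min, were 20 at 10 min (0 higher, 20 lower, beside 6 and 13) and 2 at 5 min, and 1 member remained called in each 240 min comparison (SESN2 against 0 min, TRIB3 against 30 min). ATF4 at 240 min against 0 min was the only value to turn sign and be called, at 0.21 with limma on log2(TPM + 1) and a mean of at least 1 TPM. Among values not called, others turned sign in that comparison, such as PHGDH (-0.11), PSAT1 (-0.03) and MTHFD2 (-0.04) with ERCC scaling, and ATF4 (0.07) and ASNS (0.04) without 0 min replicate 1. At 30 min 160 genes were called without a filter on low counts and 9, 10 and 8 by limma (log2(TPM + 1), log2(TPM + 0.1) and a mean of at least 1 TPM). At 10 min, where 19 were called, the counts were 74 without a filter, 4 and 1 by limma on log2(TPM + 1) without and with the minimum, and 40 with only the times compared. At 5 min, where edgeR called 0 genes (1976 at an unadjusted p under 0.05), the counts were 1 by DESeq2, 144 without a filter (1 member, TRIB3, at -0.25, adjusted p = 0.0102), 7, 8 and 2 by limma and 1 with only the times compared.

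Leaving out 1 library at a time gave 2 to 4 members called at 240 min against 0 min and 2 to 4 against 30 min, where the 4 against 0 min came without 0 min replicate 1 (PSAT1 and MTHFD2 also higher). Between 18 and 53 genes were called at 30 min, 9 to 24 at 10 min and 0 to 22 at 5 min, the 22 without 5 min replicate 1. TRIB3 at 240 min against 0 min ranged from 0.51 to 0.76 and SESN2 from -0.56 to -0.45, both called in all 10 fits. Where a time kept 1 library, that library was assumed to vary like the others.

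The replicate numbers did not pair the libraries: over the 10 pairs of times the replicate differences correlated from -0.12 to 0.13, 2 of them over 0.1. With the numbers as a replicate block 1 gene was called at 5 min, and 3 members were called at 240 min against 0 min (SHMT2 also lower, -0.14, adjusted p = 0.0407), 4 against 30 min and 0 at the earlier times. The member count with an IR peak, 1, was 0 with 1 kb (beside 1915 of 13695 tested genes), 2 with 20 kb (21.0%), 0 with peaks above the median score (8.73%) and 0 by the deposited nearest gene (8.55%).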
